A study of Danio rerio with 2 samples.

Results

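The apolipoprotein genes measured here were those whose single platform symbol starts with apoa, apob, apoc or apoe, apobec genes left out. The rule found 12 genes, measured by 14 probe sets, of 8793 genes with a single symbol and 10795 probe sets in all. The main members, apoeb and apoc1, encode apolipoprotein E and apolipoprotein C-I. Hearts of adult zebrafish lost about 20% of the ventricle at its apex, and the fish were then kept in atropine, which blocks muscarinic acetylcholine receptors, or in plain water. Whole hearts were taken 24 hours after the amputation. Each condition is 1 pool of 15 hearts on 1 Affymetrix array, so both groups carry the same injury and there is no uninjured group. Neither strain nor dose nor the age of the fish beyond adult is given in the sources used here. Because there is 1 array per condition, the differences have neither replicates nor p-values, and their precision is limited by the number of arrays.

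Apolipoproteins coat the particles that carry cholesterol, triglyceride and phospholipid between tissues. ApoB proteins form the scaffold of the triglyceride-rich particles made by liver, intestine and, in fish larvae, the yolk. The smaller apoA, apoC and apoE proteins move between particles, where they activate or inhibit lipases and bind receptors. ApoE is a ligand that LDL receptor family members recognise, and in mammals macrophages that have taken up cell debris secrete it with cholesterol. In zebrafish apoeb is widely used as a marker of microglia, the macrophages of the brain, and is also made by the yolk syncytial layer. Heart muscle takes most of its energy from fatty acids, part of which lipoprotein lipase frees from such particles at the vessel wall.

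Of the 12 genes, apoeb and apoc1 alone gave a value above the level filter, and both were lower in atropine-exposed hearts. A probe set passed that filter where the higher of its 2 values reached 4.05 on the log2 scale, the median of all non-control values. Of all 15502 non-control probe sets 7961 passed. For apoeb the deposited log2 value was 5.25 in atropine and 6.27 in water. The log2 difference, atropine minus water, was -1.02, so the signal in atropine was 2.03-fold lower. The apoc1 probe set had a log2 value of 4.09 in atropine, just above the filter, and 4.82 in water. Its log2 difference of -0.72 is 1.65-fold lower in atropine. ApoC-I is a small exchangeable apolipoprotein that in mammals slows the clearance of triglyceride-rich particles. Each of the 2 genes has 1 probe set on the array, so neither difference could be set against a second one. In RNA from whole hearts, fewer cells of a type and less RNA per cell cannot be told apart.

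At least 1.5-fold lower were 2 of the 2 member probe sets past the filter, against 2.29% of all 7961 probe sets past it, and at least 1.5-fold higher were 0 of the 2, against 2.11%. Of the 2, 1 was at least 2-fold lower, apoeb, against 0.465% of all. Both genes were chosen as main members with earlier results of these data known, so these shares are a description. The median difference was -0.87 for the 2 probe sets and -0.01 for all that passed. Of the 7961, 35 had a lower difference than apoeb and 98 a lower one than apoc1.

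How often differences of this size occur at a like level is a further description of the arrays. Of 1901 other probe sets past the filter whose mean log2 level lay within 0.5 of that of apoeb, 5 were at least as far lower in atropine and 4 at least as far higher. For apoc1 the same window held 2071 probe sets, of which 18 were at least as far lower and 21 at least as far higher. Differences of the size seen for apoeb and for apoc1 were therefore found about as often in either direction at their levels. The differences within these windows had an SD of 0.26 around apoeb and 0.27 around apoc1. In 648 genes with several probe sets past the filter, at any level, the difference measured by 1 probe set had a spread of 0.15. This is a log2 SD from the gap between the 2 brightest. This spread covers measurement on the same RNA and not the variation between pools of hearts.

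**Figure D1:**
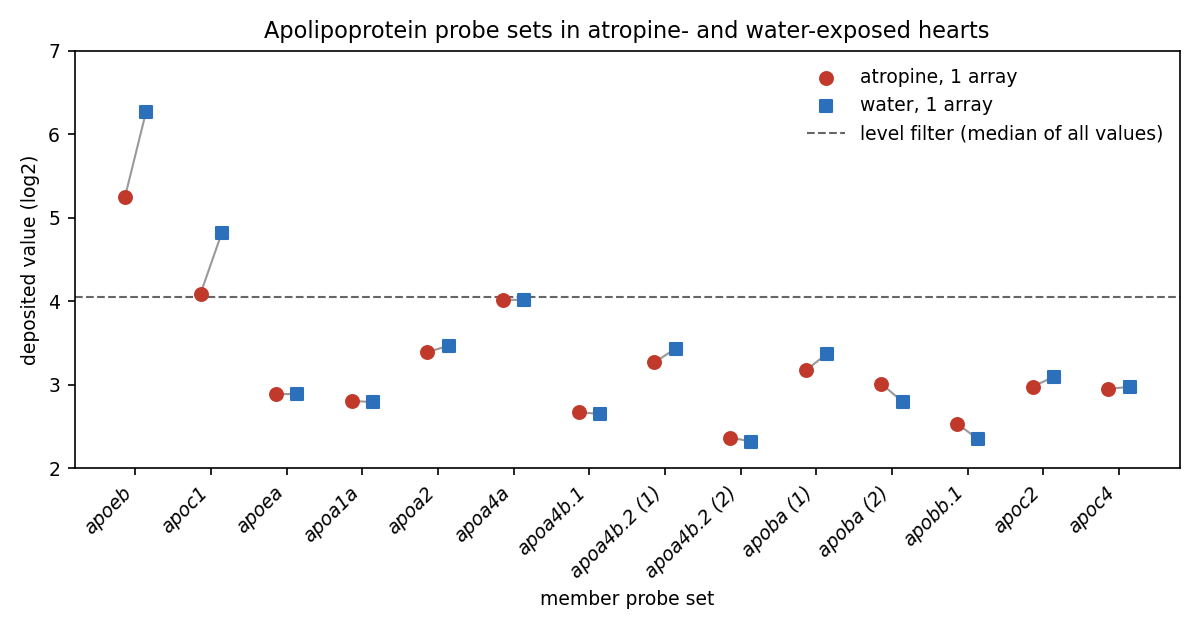
Deposited log2 values of the 14 apolipoprotein probe sets in atropine (circles) and water (squares), 1 array each, with the level filter of 4.05 as a dashed line. The probe sets of apoeb and apoc1 lie above the line, both lower in atropine, and the other 12 lie below it. Heights of different probe sets are not comparable with each other.

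**Figure D2:**
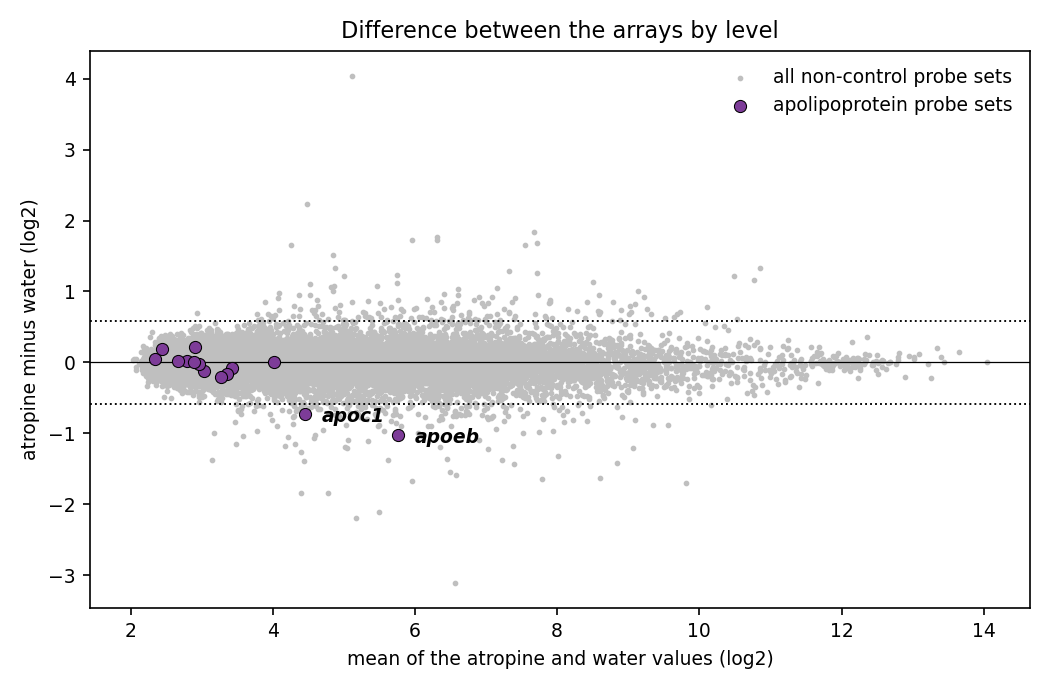
Log2 difference, atropine minus water, against the mean log2 value of the 2 arrays, for 15502 non-control probe sets (grey) and the 14 apolipoprotein probe sets (purple). Dotted lines mark 1.5-fold. Of the apolipoprotein probe sets, apoeb (-1.02) and apoc1 (-0.72) lie past the lower line and the other 12 lie between -0.20 and 0.22.

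The other 10 genes, with 12 probe sets, stood below the filter on both arrays. Their log2 values ran from 2.37 to 4.02 in atropine and from 2.32 to 4.02 in water. Their differences had a median of 0.00 and an SD of 0.13, with 5 below 0 and 7 above it. At least 1.5-fold lower were 0 of the 12, against 0.106% of all 7541 probe sets below the filter, and at least 1.5-fold higher were 0, against 0.0133%. These 7541 probe sets below the filter had an SD of 0.16. Without detection calls, low and absent transcripts cannot be told apart for these genes.

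Among the genes for apoA proteins, apoa1a, for the main protein of HDL, had log2 values of 2.81 in atropine and 2.79 in water. The gene for a second HDL protein, apoa2, stood at 3.39 in atropine and 3.47 in water. For apoa4a the values were 4.02 in atropine and 4.02 in water, with a difference of 0.00. It stood 0.03 below the filter, the nearest of the 12 probe sets to it. Its relatives of the apoA-IV family are made in the intestine during fat absorption in mammals. Of these, apoa4b.1 stood at 2.67 in atropine and 2.65 in water. The brighter probe set of apoa4b.2, whose name ends in _a_at, stood at 3.27 in atropine and 3.43 in water, and the other at 2.37 in atropine and 2.32 in water. The differences of these 6 apoA probe sets lay between -0.17 and 0.05.

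The genes for the apoB scaffold gave low signals. One probe set of apoba stood at 3.17 in atropine and 3.37 in water, and the other at 3.01 in atropine and 2.80 in water. These differences of -0.20 and 0.22 have opposite signs, and they are the extremes among the 12 probe sets below the filter. The probe set of apobb.1 stood at 2.54 in atropine and 2.35 in water. In zebrafish larvae apobb.1 supplies most of the apoB of circulating particles.

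Of the remaining apoC genes, apoc2, whose product is the cofactor of lipoprotein lipase, stood at 2.98 in atropine and 3.096 in water. For apoc4 the values were 2.95 in atropine and 2.98 in water. The paralog of apoeb, apoea, stood at 2.89 on each array, with a difference of 0.01. A lower signal in atropine was thus measured for 1 of the 2 apoE genes, while the other lay below the filter.

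The genes apoeb and apoc1 are neighbours on their chromosome. In the RefSeq gene table of the GRCz12tu assembly they stand side by side, with no annotated gene between them, in a run of 8 apolipoprotein genes with 3 other annotated genes among them. In order these are apoa4b.1, apoa4b.3, apoa4b.2, apoeb, apoc1, apoc4, apoa2 and apoc2. Of the 8, 7 have a probe set. The 5 genes other than apoeb and apoc1 had 6 probe sets, all below the filter on both arrays, with log2 values up to 3.39 in atropine and 3.47 in water and differences from -0.17 to 0.05. The paralogs apoa4a and apoea form a neighbouring pair elsewhere. The table lists 15 genes under the same name rule, of which apoa1b, apoa4b.3 and apobb.2 had no named probe set and are not analysed here.

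**Figure D3:**
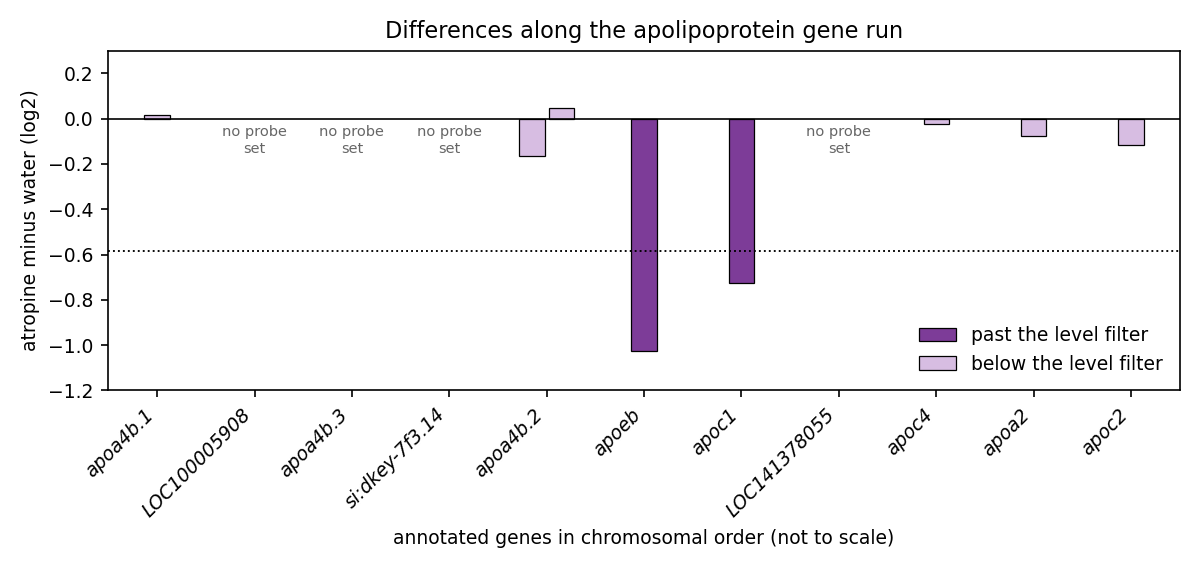
Log2 difference, atropine minus water, of each probe set along the run of genes that holds apoeb, in chromosomal order and not to scale. The dotted line marks 1.5-fold lower. The bars of apoeb and apoc1 (dark) reach -1.02 and -0.72, and the 6 bars of probe sets below the level filter (light) lie between -0.17 and 0.05.

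The genes whose difference was nearest to that of apoeb, by the absolute gap of log2 differences over the 2 arrays, were mpped2, mpx, pcbd1, col1a2 and krt4. The neutrophil peroxidase gene mpx stood at 5.30 in atropine and 6.29 in water, a difference of -0.995. The collagen I gene col1a2 differed by -0.98 and the keratin gene krt4 by -0.97. Second probe sets past the filter differed by more, at -1.37 for mpx and -1.22 for col1a2. The mpx probe sets below the filter differed by 0.02 and -0.09. The likeness of mpx and col1a2 to apoeb thus depends on the probe set. The remaining genes, mpped2 and pcbd1, differed by -1.04 and -1.07. In atropine pcbd1 stood at 4.04, just below the filter, and it passed by its water value of 5.11 alone. For apoc1 the nearest were inpp4aa (-0.73), ncf1 (-0.72), p4ha1b (-0.72), fkbp10b (-0.73) and col6a3 (-0.72). Of these ncf1 encodes a subunit of the phagocyte NADPH oxidase, p4ha1b a collagen prolyl hydroxylase and col6a3 a chain of collagen VI. In atropine fkbp10b stood at 3.59, below the filter, and it passed by its water value of 4.32 alone. The likeness of pcbd1 to apoeb and of fkbp10b to apoc1 thus rests on a low atropine signal. A likeness over 2 arrays rests on a single difference per gene.

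Other genes of lipoprotein metabolism were followed in 5 lists by role. The counts are of genes, each by its brightest probe set. Of all 5294 genes past the filter, 2.12% were lower by 1.5-fold or more and 1.87% were higher by as much, with a median difference of -0.01. Of the other proteins that bear an apolipoprotein name, and clu (clusterin, or apolipoprotein J), 9 had a probe set and 3 passed the filter, none of them 1.5-fold apart. The brightest, apooa, encodes a mitochondrial inner membrane protein and differed by -0.43, with -0.34 on its second probe set. For clu the log2 value was 6.52 in atropine and 6.87 in water.

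Receptors and uptake genes included 14 with a probe set, of which 11 passed the filter. In this list 1 was lower by 1.5-fold or more and 0 higher by as much, with a median of -0.22. The lower one was lrpap1, for the chaperone that keeps LDL receptor family proteins from binding ligands early, at 6.38 in atropine and 7.08 in water (-0.71). Named after their values were seen, the HDL receptor gene scarb1 differed by -0.54 and lrp1aa, for an endocytic receptor of apoE particles, by -0.41. The VLDL receptor gene vldlr, picked likewise, differed by 0.19 on a probe set that can take up related transcripts. These values are from the brightest of 2 probe sets for scarb1 and of 3 for vldlr, and the others are not given here. Genes npc1 and npc2.1, whose products pass cholesterol out of the lysosome, differed by 0.48 and -0.22, and were picked likewise.

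Lipases and lipid transfer genes passed the filter in 6 of 9 cases, with 1 lower by 1.5-fold or more, 0 higher by as much and a median of -0.30. That gene, lmf2b, of the lipase maturation factor family, had a difference of -0.64 on its brighter probe set and 0.36 on the other, so its direction is uncertain. The lipoprotein lipase gene lpla, named after its value was seen, stood at 6.02 in atropine and 6.52 in water (-0.50). Assembly and efflux genes passed the filter in 4 of 8 cases, with none 1.5-fold apart and a median of -0.18. The brightest, the lipid droplet coat gene plin3, differed by 0.18, and pdia6, for a protein disulfide isomerase, by -0.30. The gene mttp, whose product loads lipid onto apoB, stood below the filter at 3.08 in atropine and 2.87 in water, and was picked after its values were seen.

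Regulators of apolipoprotein genes passed the filter in 8 of 20 cases, with 2 lower by 1.5-fold or more, 0 higher by as much and a median of -0.27. The 2 were the transcription factor genes mafbb and spi1b. For mafbb, measured by a probe set that can take up related transcripts, the log2 value was 5.99 in atropine and 6.74 in water (-0.75). The gene spi1b, for PU.1, stood at 7.22 in atropine and 7.92 in water (-0.71), with -0.73 on its second probe set. The oxysterol receptor gene nr1h3 (LXR), which drives apoE in mammalian macrophages, was picked after its values were seen and stood at 6.11 in atropine and 6.06 in water. The liver factor genes hnf4a and foxa2, picked likewise, lay below the filter, with hnf4a at 3.07 in atropine and 3.13 in water.

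**Figure D4:**
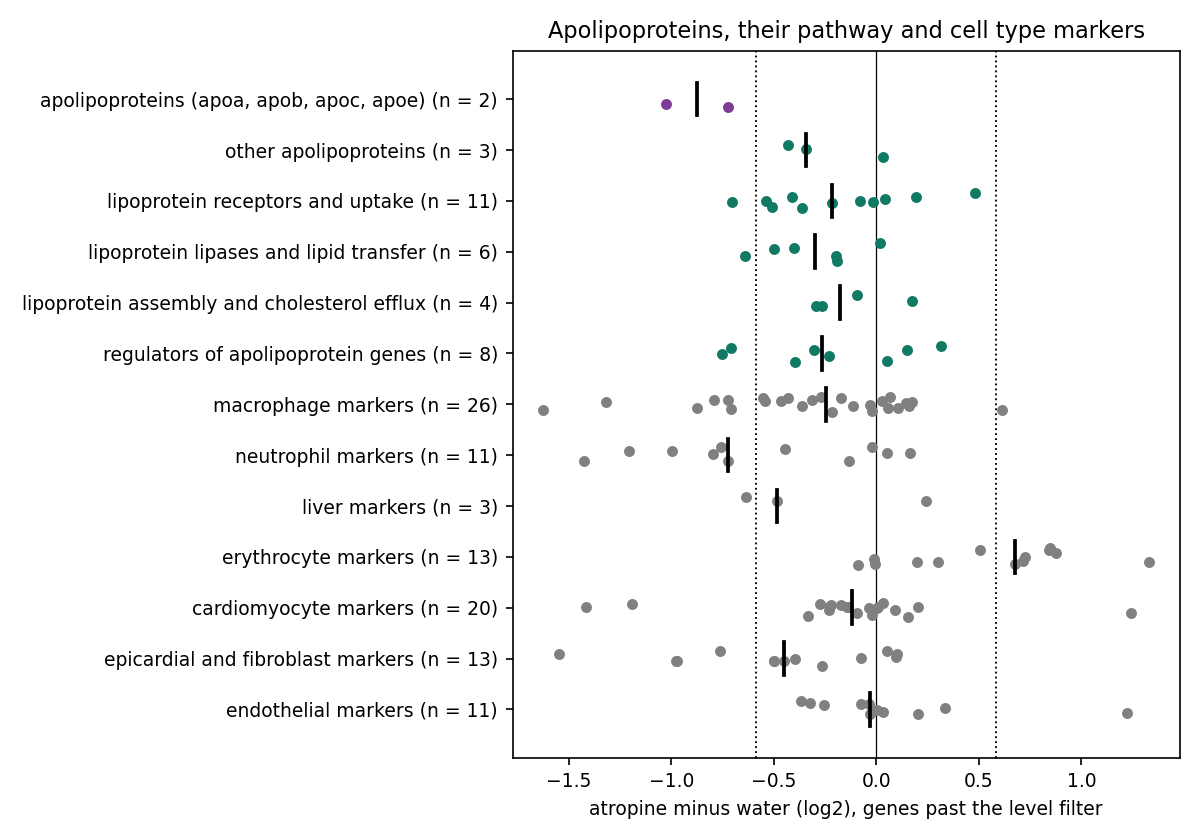
Log2 difference, atropine minus water, of each gene past the level filter, for the apolipoproteins (top), 5 lists of lipoprotein genes (green) and 7 lists of cell type markers (grey). Short vertical lines are medians and dotted lines mark 1.5-fold. Medians of the 5 green lists lie between -0.34 and -0.18, that of neutrophil markers at -0.72 and that of erythrocyte markers at 0.68. The gut list is not shown because none of its genes passed.

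Macrophages, liver and gut are known sources of apolipoproteins, and their markers are given beside these genes. Of 27 macrophage genes with a probe set 26 passed the filter, with 6 lower by 1.5-fold or more, 1 higher by as much and a median of -0.24, and 18 of the 26 were below 0. Of the 6, spi1b is also counted among the regulators and ncf1 among the neutrophil genes below, so these counts overlap. The summed linear signal of the macrophage list was 16214 in atropine and 17627 in water. This sum follows its brightest genes. These were cd63 (12.03 in atropine, 12.01 in water), grna.1 (11.15 in atropine, 11.18 in water) and ctsba (10.84 in atropine, 10.23 in water). The sum therefore does not describe most of the list. The genes cd74a and cd74b, for the invariant chain that binds MHC class II, differed by -1.63 and -1.32. For lgals3bp.1, which encodes a galectin-binding protein, the difference was -0.88, while the cathepsin gene ctsba differed by 0.61. Differences of 0.10 and -0.36 were found for the macrophage receptor genes csf1ra and marco, picked after their values were seen. No probe set was named mpeg1.1. The part of macrophage number in the apoeb and apoc1 differences was not tested.

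Liver and gut markers were mostly at low signal. Of 32 liver genes with a probe set 3 passed the filter, rbp4 (-0.63), hp (-0.49) and tfa (0.24), for a retinol carrier, haptoglobin and transferrin. Of these rbp4 alone was 1.5-fold apart. The summed linear signal of the list was 692 in atropine and 824 in water, but the 29 genes below the filter had a median difference of 0.04, so the sum does not describe most of the list. The defining liver genes fabp10a, fga and fgb, picked after their values were seen, lay below the filter, with fabp10a at 3.23 in atropine and 2.97 in water. Of 10 gut genes 0 passed, with log2 values up to 3.46 in atropine and 3.45 in water.

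All marker lists were chosen with earlier results of these data known. Of all 5294 genes past the filter, 2.12% were lower by 1.5-fold or more and 1.87% higher. Among the other marker lists, 11 of 12 neutrophil genes passed, with 6 lower by that much, 0 higher and a median of -0.72. The matrix protease genes mmp9 and mmp13a differed by -1.43 and -1.204. Of 16 epicardial and fibroblast genes 13 passed, with 4 lower by that much, 0 higher and a median of -0.45, and the fibronectin gene fn1a differed by -1.55, with -0.26 and -0.11 on 2 probe sets below the filter. Erythrocyte genes passed in 13 of 14 cases, with 0 lower by that much and 7 higher, and a median of 0.68. Their largest differences were those of the globin gene hbba2 (1.33) and the transcription factor genes klf1 (0.88) and tal1 (0.85). All 20 cardiomyocyte genes with a probe set passed, so markers of the labelled tissue were present, with a median of -0.12. Of these the troponin gene tnnc1a (-1.41) and the myosin gene myh7 (-1.19) were the 2 lower by 1.5-fold or more. The transcription factor gene tbx5a (1.24) was the 1 higher, with 0.34 on a probe set below the filter. Of 15 endothelial genes 11 passed, with a median of -0.03 and 1 gene 1.5-fold apart, the water channel gene aqp8a.1 (1.22). For the polyadenylated control transcripts the median difference was -0.48 over 13 probe sets (from -0.86 to -0.13), while hybridization controls differed by a median of -0.05. Scaled to those transcripts, apoeb differed by -0.55 and apoc1 by -0.25, the neutrophil median was -0.24 and the liver median, over 3 genes, -0.01, and the medians of the other lists with a gene past the filter lay above 0. Counts changed too under that scaling. Of all 7961 compared probe sets 0.402% were then lower by 1.5-fold or more and 29.8% higher by as much. These shares are of probe sets, while the list counts that follow are of genes. Of 26 macrophage genes 2 were lower by that much and 4 higher, and of 8 regulators 0 were lower and 2 higher. Of 11 receptors and uptake genes 0 were lower and 2 higher. Neutrophil genes had 2 lower and 1 higher, and epicardial and fibroblast genes 1 lower and 0 higher. Erythrocyte genes had 0 lower and 10 higher of 13, cardiomyocyte genes 2 lower and 3 higher of 20, and endothelial genes 0 lower and 3 higher of 11. Assembly and efflux genes and liver genes each had 0 lower and 1 higher. The other apolipoproteins and the lipases had 0 in either direction. The part of these controls, and of the cell types behind the lists, in the apoeb and apoc1 differences was not tested.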

How the data were processed

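Per the labels' protocols, total RNA from pooled whole hearts was extracted with Trizol and labelled with biotin by an Affymetrix 3′ IVT Express kit. The authors deposited 1 log2 value per probe set and array. Their range, 2.02 to 14.05, is the basis for calling them log2. The method of normalization is not given in the sources used here. Sorted, the values of the 2 arrays differ by at most 0.15. Arrays have no read depth.

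Names came from the platform annotation, with symbols updated by Entrez identifier through a RefSeq table (99.2% of the named probe sets found). A single symbol was given for 10795 of 15502 non-control probe sets, several for 135 and none for 4572. No probe set with several symbols held a member. Differences are atropine minus water as deposited, without re-centring, and folds are 2 to the power of their size. The list counts use the brightest probe set of a gene. Summed linear signals add 2 to the power of the log2 value over every gene of a list with a probe set.

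Members, lists and alternatives were chosen with earlier results of these data known. Every member is named. Of each list, up to 3 genes at least 1.5-fold apart per direction are named, otherwise the 2 brightest, and by likeness the 5 nearest genes to each main member, clone names left out. The text says which genes were picked after their values were seen. Also outside the rule, cd63 and grna.1 were named as bright macrophage genes, and hp and tfa as liver genes past the filter. The count routine was tested on simulated data. Alternatives were median centring, quantile normalization, loess on level (span 0.4), scaling to spike-ins, an offset of 16 on the linear scale, no filter, the upper quartile as filter, omission of probe sets with names ending in _x_at, _s_at or _a_at, means per gene and a 2-fold threshold. Python 3.11.15, numpy 2.4.6, pandas 2.3.3, statsmodels 0.14.6 and matplotlib 3.10.9 were used.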

Additional observations from a re-analysis of the deposited data

How the results depend on the processing

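Under all the alternatives run that give them a value, apoeb and apoc1 stayed lower in atropine. Median centring, quantile normalization and loess kept apoeb at -1.02 and apoc1 between -0.72 and -0.71. Median centring shifts all differences alike. Omission of probe sets by name ending and means per gene could not change either gene. Each has 1 probe set, and its name has none of those endings. With the offset of 16 on the linear scale apoeb differed by -0.79, apoc1 by -0.42, which is under 1.5-fold, and their median by -0.60. At least 1.5-fold lower was then 1 of the 2 probe sets, against 1.24% of all 7961. Scaling to the polyadenylated spike-ins moved the median of all compared probe sets to 0.47 and put apoeb at -0.55, apoc1 at -0.25 and their median at -0.40, with 0 at least 1.5-fold lower. Under it 32 of all compared probe sets were lower by 1.5-fold or more and 2370 higher by as much, against 182 and 168 as deposited. With the filter at the upper quartile only apoeb passed (median -1.02, count 1), and 2.68% of all 4061 probe sets past that filter were as far lower. Without a filter the median over all 14 probe sets was -0.0105. At 2-fold the count of lower probe sets was 1 of 2, against 0.465% of all. The count of higher ones was 0 under every alternative, of 14 probe sets without a filter, 1 at the upper quartile and 2 otherwise. Over all that were compared, the share higher was 0.352% at 2-fold and 29.8% under the spike-in scaling. It lay between 1.09% and 2.71% under the others. With so few member probe sets a count of 0 says little. No paired analysis was possible because each condition has 1 array, and no array could be left out.

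Low signal limits what can be said of the 10 genes below the filter. For apoc1 the limit is its atropine value of 4.09, which lies next to the filter.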
